A study of Mus musculus with 2 samples.

Results

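Mir143 and Mir145a are the hairpin genes of 1 small miRNA cluster, described here in the mouse adrenal gland, which secretes steroids from its cortex and catecholamines from its medulla. The members were chosen by name: they are the rows of the deposited tables whose Ensembl identifiers carry these symbols in GENCODE M21, 2 of the 2202 miRNA genes counted, and both were found. MicroRNA sequencing had been done on total RNA of C57BL/6J mice, an inbred strain, with inserts below 30 nt per the labels. There was 1 group with 2 replicates. One label describes wild-type male tissue, but sex is entered elsewhere as not collected, and age and stage are unknown. The p-values here measure only how far the difference between these libraries passes counting noise. Both replicates carry 1 donor record, so that difference may be technical, and whether they are separate animals is not clear. With 1 group, no condition was compared.

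A miRNA gene is transcribed as part of a longer RNA from which a hairpin is cut, and the hairpin is cut again to a mature miRNA that lowers the output of messenger RNAs pairing with its seed, bases 2 to 8. Mir143 and Mir145a are known from contractile smooth muscle of vessels and hollow organs and from the pericytes of small vessels. In mice, serum response factor and its partner myocardin drive their shared transcript, and their mature miRNAs repress regulators such as Klf4, Klf5 and Elk1 that oppose the contractile state. In an endocrine gland such cells lie mainly in the walls of vessels and in the capsule. Those messenger RNAs were not measured here, so the smooth muscle origin of the reads was not checked against protein-coding markers.

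Mature sequences are shown for miRNAs set beside the cluster below, because they tell which of those levels can be read from uniquely placed reads. RefSeq's table on GRCm38.p6 matched 26 of the 32 listed genes; Mir143, Mir145a, Mir145b, Mir133a-1, Mir133a-2 and Mir1a-2 were not among them. Capitals mark the seed. The mature forms miR-221-3p (chrX:19146307-19146329, minus strand) and miR-222-3p (chrX:19146901-19146923, minus strand) share a seed but differ after it, so their reads can be told apart. The other 3 mature forms are each made from more than 1 locus and are identical there. These are miR-24-3p (chr13:63301251-63301272 and chr8:84208875-84208896, plus strand), miR-26a-5p (chr9:119031811-119031832 and chr10:126995543-126995564, plus strand) and miR-199a-3p. The last is at chr9:21496498-21496519 on the minus strand and at chr1:162217883-162217904 on the plus strand, and miR-199b-3p at chr2:32318524-32318545 on the plus strand has the same letters.
miR-221-3p: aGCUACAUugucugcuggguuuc
miR-222-3p: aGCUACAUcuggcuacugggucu
miR-24-3p: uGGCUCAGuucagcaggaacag
miR-26a-5p: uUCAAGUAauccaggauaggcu
miR-199a-3p: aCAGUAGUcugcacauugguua

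On mm10, Mir143 (ENSMUSG00000065445.3) lies on the minus strand of chromosome 18 from 61649196 to 61649258. Mir145a (ENSMUSG00000065592.2) lies on the same strand from 61647825 to 61647894. Since the strand runs toward lower coordinates, Mir145a stands downstream of Mir143, with a gap of 1301 nt between the hairpins. No other miRNA gene is annotated within 10 kb of either. In GENCODE M21 neither hairpin lies inside a gene. The noncoding gene Carmn, known as a host transcript of the cluster and as a noncoding RNA of cardiac and smooth muscle cells, ends there 366 nt upstream of Mir143. In RefSeq's annotation of GRCm38.p6, Carmn runs from 61645878 to 61665538 and spans both hairpins. Whether they fall in its exons or introns was not determined from that table. Bvht, a noncoding RNA known from the commitment of heart cells in mice, is annotated on the opposite strand, and its GENCODE end lies 352 nt from Mir145a.

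**Figure D1:**
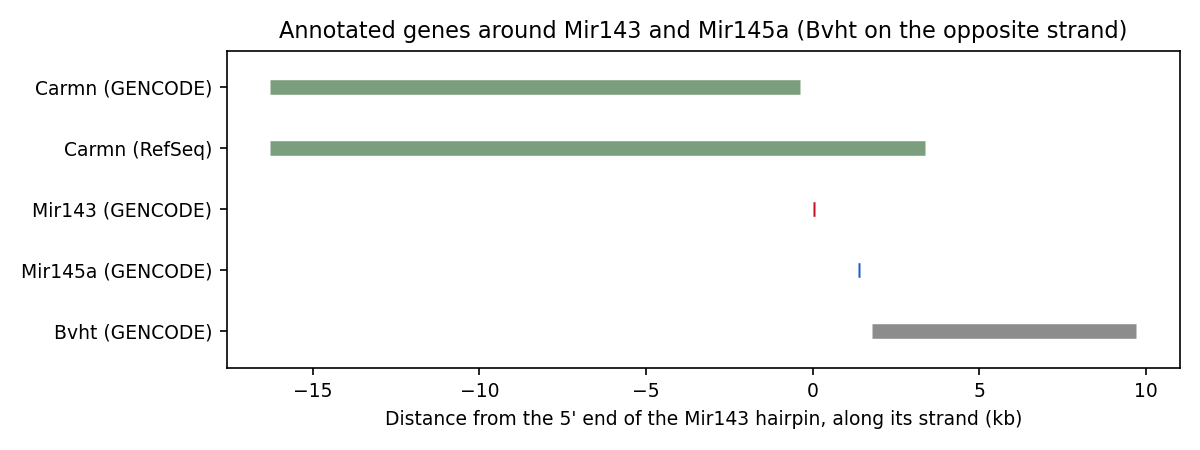
Annotated genes around the cluster, drawn by distance in kb from the 5′ end of the Mir143 hairpin along its strand; bars span each gene. Mir145a lies downstream of Mir143 beyond a gap of 1301 nt. Carmn as annotated by RefSeq covers both hairpins, while Carmn as annotated by GENCODE M21 stops 366 nt before Mir143, and Bvht lies on the opposite strand.

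Neither hairpin shares a long stretch with another annotated miRNA hairpin; the rest of the genome was not searched. The longest stretch that Mir143 (63 nt) shares with any other miRNA hairpin, on either strand, is 11 nt. Mir145a (70 nt) shares 17 nt with Mir145b, a second gene of the same name stem on chromosome 18 from 69022199 to 69022273, and at most 15 nt with any other. Neither shares a stretch of 20 nt, the length used below to mark a gene that can lose reads to the multimapping class. Mir145b had 4 counts in replicate 1 and 4 in replicate 2, or 0.390 and 1.13 in depth-scaled counts (CPM), just above the 3 counts that a count of 0 allows. At both members the counts on the opposite strand were 0 in both replicates.

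The libraries differed in depth. Counts given to miRNA genes in sense direction came to 10263894 in replicate 1 and 3525666 in replicate 2, which were 49.8% and 33.2% of all reads. Reads that mapped to several places, 37.8% and 38.8% of mapped reads, entered no gene. CPM below are over the assigned counts. No length was used, since a read is a whole small RNA. The arms of a hairpin were counted together. How evenly different small RNAs are captured was not measured, so ratios between genes below are ratios of counts. Because whole glands were sequenced, fewer cells of a type and less RNA per cell cannot be told apart.

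By assigned counts, Mir143 was among the leading miRNA genes of the gland and Mir145a stood well below it. Mir143 had 253911 counts in replicate 1 and 90043 in replicate 2, which made 24738 and 25539 CPM. The Wilson 95% intervals ran from 24643 to 24833 CPM and from 25375 to 25704 CPM. The replicates were thus close, at 2.51% ± 0.057 of assigned counts (SD, n = 2). Mir145a had 9037 and 3808 counts, which made 880 and 1080 CPM. Its Wilson intervals ran from 863 to 899 CPM and from 1046 to 1115 CPM. The mean of Mir145a was 980 ± 141 CPM (SD, n = 2), and on this scale replicate 2 was the higher library for both genes. Scaled to all reads instead, replicate 1 was the higher, with 12327 against 8472 CPM for Mir143 and 439 against 358 CPM for Mir145a. All intervals cover counting error only. Amplified duplicates were not marked, so the intervals may be too narrow.

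By level, Mir143 ranked 12th in replicate 1, 11th in replicate 2 and 13th by the mean over both. Mir145a ranked 75th, 60th and 67th. These ranks, and those of clusters below, are by uniquely placed reads. Genes that lose reads to the multimapping class may stand too low in them. In all, 267 miRNA genes reached 10 CPM in both replicates, which is the limit of detection used here. The sum of the members was 25619 CPM in replicate 1 and 26619 CPM in replicate 2. Mir143 made up 96.6% and 95.9% of that sum. Consecutive miRNA genes of 1 strand were joined into clusters at gaps of at most 10 kb, which gave 124 clusters. Among these the pair ranked 7th by summed mean CPM, between the cluster led by Mirlet7d, at 27927 CPM, and that led by Mirlet7e, at 25745 CPM. The replicate ranges of these 3 sums overlapped, so their order is not set beyond the spread.

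**Figure D2:**
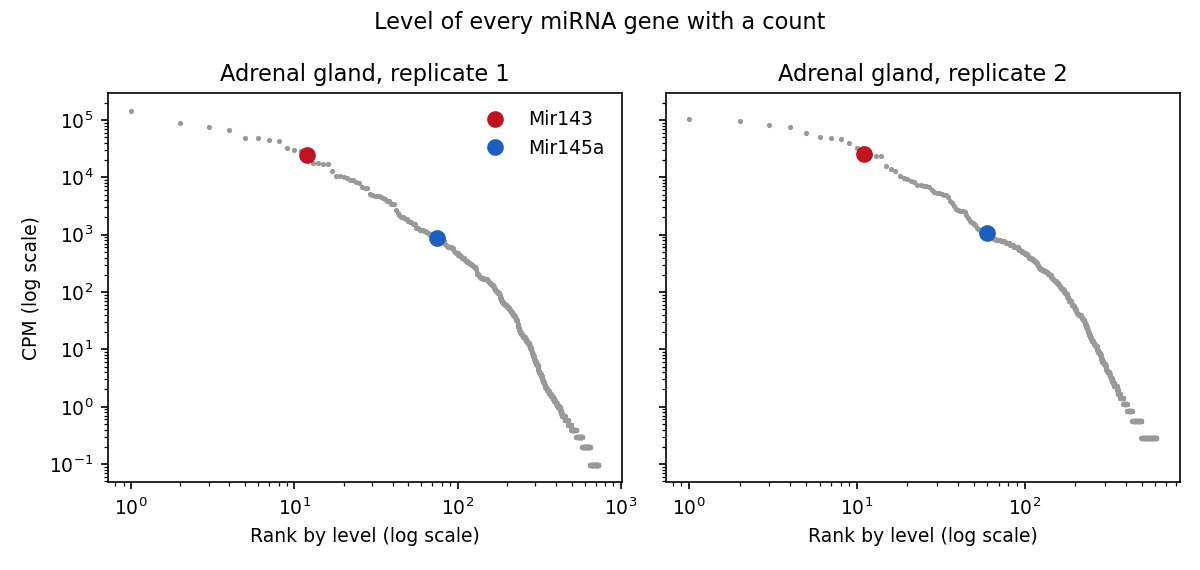
CPM of each miRNA gene with a count (log axis) against its rank by level (log axis), in replicate 1 (left) and replicate 2 (right); coloured points are the members. Mir143 stands at rank 12 and 11, and Mir145a at rank 75 and 60.

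Of the 6 genes next to Mir143 in mean level, 4 had replicate ranges that overlapped its own. Just above it stood Mir26b (17093 and 40184 CPM in replicates 1 and 2), Mirlet7d (30470 and 23864 CPM) and Mir10b (29421 and 23835 CPM). The ranges of these 3 genes overlapped that of Mir143, so their order against it is not set by these replicates. Below it, Mir139 overlapped too (17967 and 24921 CPM). Mir322 (17149 and 15718 CPM) and Mir127 (18069 and 14209 CPM) did not. Around Mir145a, all 6 neighbours overlapped its range: Mir337, Mir15a and Mir132 above it and Mir598, Mir615 and Mir369 below it, with mean levels from 909 CPM for Mir369 to 1022 CPM for Mir337. The rank of Mir145a is therefore less well set than that of Mir143.

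Mir143 varied less between the replicates than most of the more abundant miRNA genes. Its log2 ratio of replicate 2 over replicate 1, with libraries scaled by the trimmed mean of M values (TMM), was 0.029, with an exact binomial 95% interval from 0.018 to 0.039, a difference of 1.02-fold. Of the 180 genes averaging 100 CPM or more, 7 had a ratio closer to 0, and the median gene lay 1.31-fold apart. Among the 18 genes averaging 10000 CPM or more, Mir143 included, the median gene lay 1.14-fold apart. Genes closer to 0 were counted under TMM scaling only. For Mir145a the log2 ratio was 0.28, from 0.22 to 0.33, or 1.21-fold, and 70 of the 180 were closer to 0. Mir145a is thus nearer to the middle of these genes than Mir143.

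Both members passed the exact two-sided binomial test of the replicates and were higher in replicate 2, with Benjamini-Hochberg adjusted p of 1.04e-06 for Mir143 and 4.01e-22 for Mir145a over the 443 genes tested. Of all genes tested, 52.8% passed in either direction and 21.2% were higher in replicate 2. This test compares 2 libraries against counting noise. At these depths it passes a difference of 1.02-fold, so passing it says little of size.

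**Figure D3:**
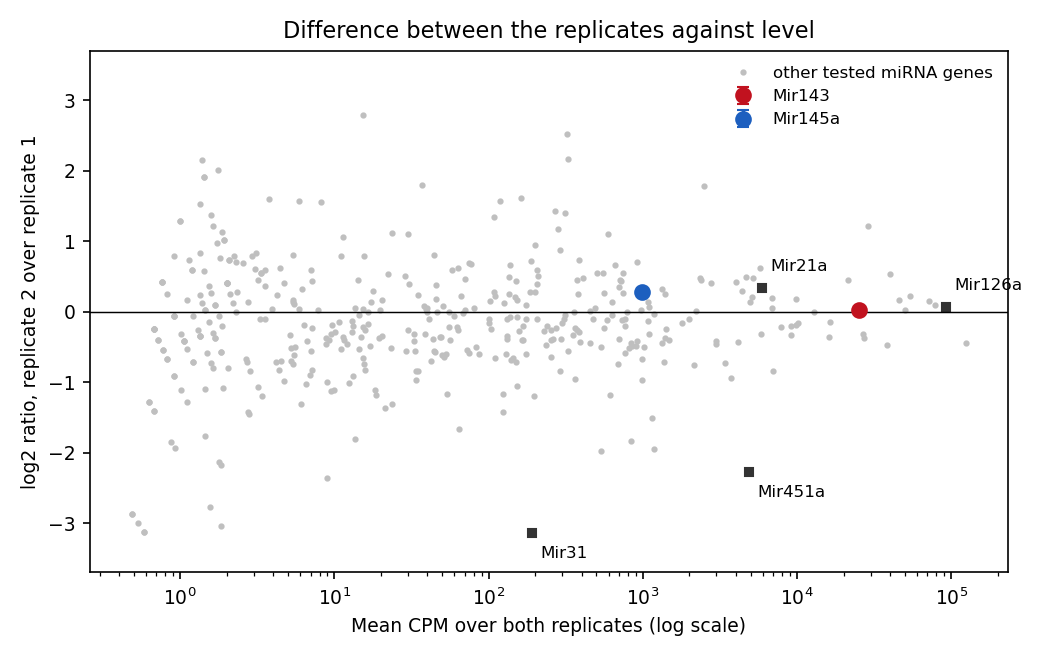
Log2 ratio of replicate 2 over replicate 1 against the mean CPM (log axis) for the 443 miRNA genes tested; bars on the members are exact binomial 95% intervals, mostly narrower than the point. Mir143 lies at 0.029 and Mir145a at 0.28, while Mir451a and Mir31 lie far below 0.

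The genes most like the members in replicate ratio, among 179 others averaging 100 CPM or more, are given with that likeness over 2 libraries only. Nearest to Mir143 were Mir598 with a log2 ratio of 0.022, Mirlet7b with 0.016 and Mir676 with 0.0060. Nearest to Mir145a were Mir1193 with 0.28, Mir125b-1 with 0.27 and Mir181a-1 with 0.28. Mir125b-1 and Mir181a-1 each have a stretch of 20 nt in common with another hairpin gene, which makes their levels uncertain.

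The members come from 1 transcript by what is known of them, yet their counts stood far apart. Per count of Mir145a there were 28.1 counts of Mir143 in replicate 1 and 23.6 in replicate 2, a mean of 25.9 ± 3.15 (SD, n = 2). The ratio was lower in replicate 2, with an odds ratio of 0.842 (95% interval from 0.810 to 0.875, Fisher's exact test, two-sided, p = 4.77e-18). Library scaling cancels in this ratio, but any difference in capture between the members does not. The test again compares these libraries, and the direction of a ratio from 1 library each has no replicate check.

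Unequal levels were common among neighbouring miRNA genes. There were 62 pairs of genes next to each other on 1 strand within 2 kb, both at 10 CPM or more in both replicates. The higher gene of a pair was named by its mean, so ratios over 1 are by construction. The median pair differed 5.20-fold in mean CPM, and Mir143 over Mir145a, at 25.6-fold, ranked 14th. Among the 42 pairs with no stretch of 20 nt shared with another locus, 6 were wider. The widest pairs were Mir29a over Mir29b-1 at 156-fold, which holds a shared stretch, Mir322 over Mir503 at 130-fold and Mir541 over Mir377 at 102-fold. The narrowest were Mirlet7e over Mir99b at 1.04-fold, Mirlet7f-2 over Mir98 at 1.14-fold, also with a shared stretch, and Mir181c over Mir181d at 1.18-fold. In 56 of the 62 pairs the same gene was higher in both replicates. The log2 ratio of Mir143 over Mir145a moved by 0.25 between replicates, against a median of 0.46 over all pairs, and 17 pairs moved less.

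**Figure D4:**
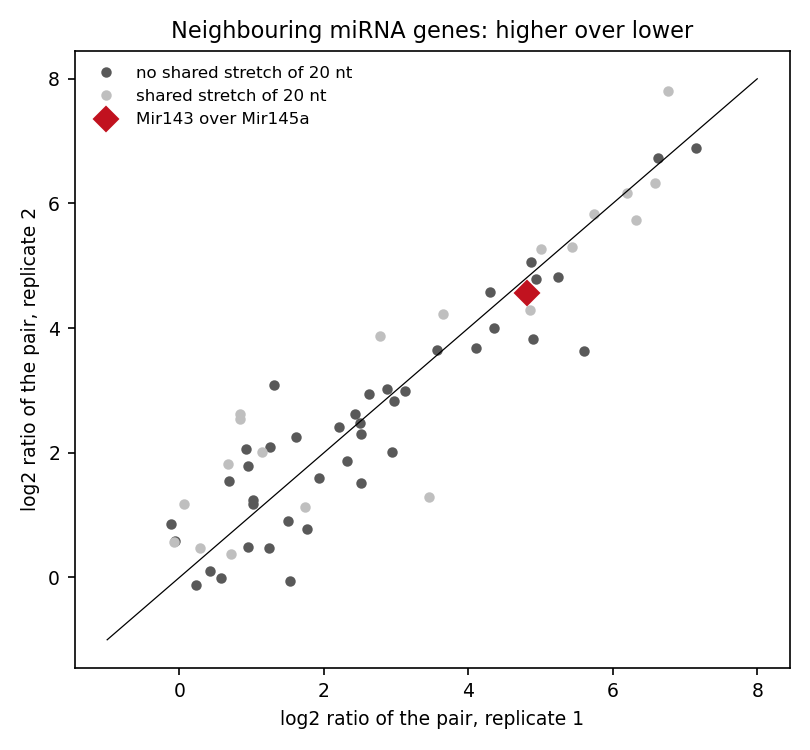
Log2 ratio of the higher over the lower gene in replicate 1 (x axis) and replicate 2 (y axis) for 62 pairs of neighbouring miRNA genes; the line marks equal ratios. Mir143 over Mir145a (diamond) lies near the line at 4.81 and 4.56, in the upper part of the pairs.

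Among miRNAs linked to contractile smooth muscle, the cluster held nearly all counts. The list had 8 genes with a summed level of 25725 CPM in replicate 1 and 26789 CPM in replicate 2. Mir204, reported to restrain proliferation of pulmonary artery smooth muscle, was the only other member detected, at 106 and 169 CPM. The 2 copies each of Mir1a and Mir133a, known from striated muscle and reported in contractile smooth muscle, had no count. All 4 have 20 nt or more in common with another hairpin gene, so a count of 0 sets no limit for them. The 3 members tested, Mir143, Mir145a and Mir204, were all higher in replicate 2 by the exact binomial test, beside 21.2% of all genes tested. Their median log2 ratio was 0.28, which is the value of Mir145a itself, against -0.17 over all 443 genes tested. The median over all genes rose with level, to -0.11 over the 180 genes averaging 100 CPM or more. Over the 18 averaging 10000 CPM or more it was 0.022.

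MiRNAs linked to proliferation of smooth muscle cells summed to 7753 CPM in replicate 1 and 8413 CPM in replicate 2, and 8 of the 9 were detected. Mir21a, a miRNA of growth and injury responses in many cell types, led them at 5213 and 6674 CPM. Mir143 stood above it 4.75-fold in replicate 1 and 3.83-fold in replicate 2. Mir221 and Mir222, which share the seed shown above and are reported to lower the cell cycle inhibitor p27 in smooth muscle, had 851 and 381 CPM and 111 and 94.7 CPM. Mir221 thus lay near the level of Mir145a in replicate 1 and below it in replicate 2. Mir31, reported to promote their growth, stood at 345 and 39.4 CPM, the widest replicate difference of the list. Mir146 (967 and 716 CPM) and the copies of Mir24 and Mir26a each have 20 nt in common with another hairpin gene and are uncertain. Of the 9 genes, 4 were higher in replicate 2, another 4 in replicate 1, and Mir24-1 missed the threshold of the exact binomial test. Over all genes tested, 21.2% were higher in replicate 2 and 31.6% in replicate 1. The median log2 ratio of the list was 0.17, against -0.17 over all genes tested. That median is the value of Mir24-1, which is itself uncertain. Of the genes higher in replicate 2, only Mir21a (log2 ratio 0.34) has no shared stretch. The other listed genes without one, Mir221 (-1.18), Mir222 (-0.24) and Mir31 (-3.14), were higher in replicate 1.

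MiRNA genes known from other cell types of the vessel wall and stroma stood at very different levels, which do not measure shares of cells. Mir126a, the endothelial miRNA gene within Egfl7, stood at 89916 and 95595 CPM. The other listed endothelial gene, Mir126b on the opposite strand, had 7 counts in replicate 1 and 1 in replicate 2. Mir143 had 0.275 counts per count of Mir126a in replicate 1 and 0.267 in replicate 2, a mean of 0.271 ± 0.0056 (SD, n = 2), and the replicates lay close together. Mir214, known from fibroblasts and other stromal cells, had 595 and 881 CPM, and Mir145a stood above it 1.48-fold and 1.23-fold. Mir199a-2 (14.2 and 11.6 CPM) and Mir199b (25.0 and 11.6 CPM) were low, and Mir199a-1 had 1 count and 0. All 3 make the shared mature form shown above and are uncertain. Striated muscle markers were near 0: Mir206 had 22 and 9 counts, Mir499 had 14 and 8, and Mir208a and Mir208b had none. A count of 0 allows up to 0.292 CPM in replicate 1 and 0.851 CPM in replicate 2.

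Blood miRNAs differed between the libraries more than the cluster did, from 1.37-fold for Mir142 to 4.86-fold for Mir451a. The list of 5 blood markers, all detected, summed to 8865 CPM in replicate 1 and 2680 CPM in replicate 2. Its erythroid member Mir451a had 8085 and 1685 CPM, and Mir144 from the same cluster had 272 and 119 CPM. The leukocyte members ran the other way. Mir142 had 314 and 434 CPM, Mir150 had 136 and 264 CPM, and Mir223 had 59.2 and 178 CPM. Of the 5 genes, 3 were higher in replicate 2 and 2 in replicate 1 by the exact binomial test, beside 21.2% and 31.6% of all genes tested. Mir143 and Mir145a were higher in replicate 2, by 1.02-fold and 1.21-fold. The part of blood content in these small differences was not tested.

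**Figure D5:**
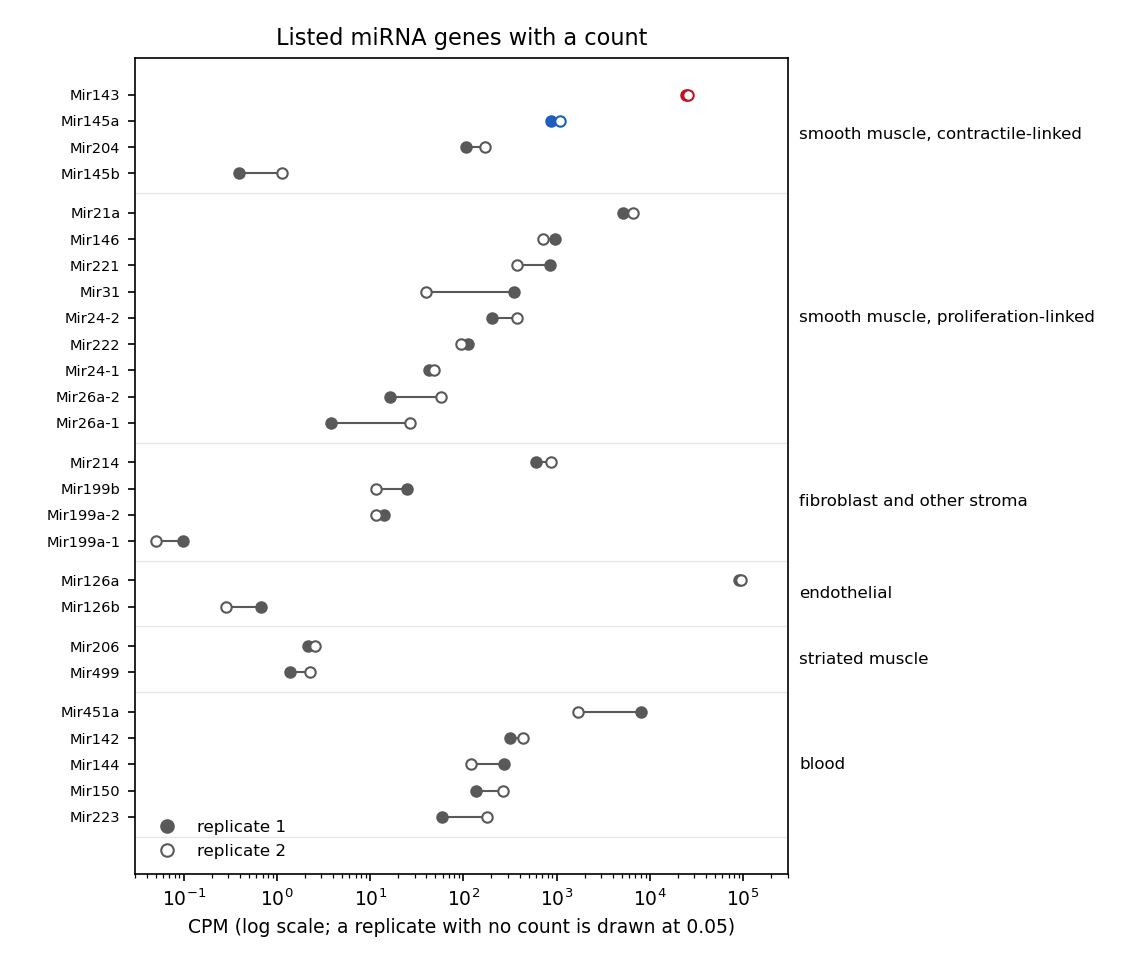
CPM (log axis) of each listed miRNA gene with a count, in replicate 1 (filled) and replicate 2 (open), grouped by list. Mir143 at 24738 and 25539 CPM stands below Mir126a alone, and the 2 points of Mir143 nearly coincide while those of Mir451a and Mir31 stand apart.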

How the data were processed

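MicroRNA sequencing of adrenal gland was analysed in 2 libraries of 1 group. The authors deposited raw counts per miRNA gene in 1 table per library, with 3 columns and no header. These were read as counts without strand, counts on the gene's strand and counts on the opposite strand. Genome build mm10 and annotation GENCODE M21 are named per the description files deposited with the tables; an adapter trimming protocol is linked per the labels. The aligner and the counter are not given in the sources at hand. Counts on the gene's strand were used. The 4 summary lines at the head of each table name no gene and entered neither library sizes nor tests. Together they held 50.2% and 66.8% of reads.

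All 2202 identifiers matched GENCODE M21. TMM factors from edgeR 4.0.16 (R 4.3.3) were 0.994 and 1.006. With 1 group, edgeR offers no contrast, so the replicates were compared gene by gene with an exact binomial test, two-sided, where both together held at least 10 counts, with Benjamini-Hochberg adjustment at 0.05. Log2 ratios have 0.5 counts added. DESeq2 1.42.0 gave alternative size factors. The test was checked on simulated data. Hairpins were compared for shared stretches of 20 nt, on both strands, leaving out overlapping genes. The members and the 6 lists were chosen with earlier results of these data known. Other named genes are the 3 next to each member in level on either side, the 3 nearest in replicate ratio, the listed genes, and the 3 widest and 3 narrowest neighbouring pairs. Seeds of the members were not compared with those of other miRNAs. Python 3.11.15 with scipy 1.17.1 did the other calculations.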

Additional observations from a re-analysis of the deposited data

How the results depend on the processing

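The replicate ratios of Mir143 and Mir145a stayed above 0 and passed the exact binomial test under DESeq2's size factors, library totals, counts without strand and minimums of 1 and 100 counts. They ran from 0.029 to 0.11 for Mir143 and from 0.28 to 0.36 for Mir145a (log2), and the number of genes passing ran from 206 to 234. The minimums change only which genes are tested, so they could not move these ratios. Without strand the members' own counts are the same, so only the library scaling could move them. Levels follow the denominator. Mir143 had 23317 CPM over uniquely mapped reads, 10399 CPM over all reads and 28699 CPM without strand, and Mir145a had 398 CPM over all reads. Over all reads, the order of the replicates turned for Mir143, with 12327 in replicate 1 and 8472 in replicate 2, and for Mir145a, with 439 and 358. The share of unmapped reads was 13.8% and 41.4%. Without strand, reads of Mir126a, which lies opposite Mir126b, are not assigned (12 and 4 counts left), and the ratio of Mir143 to Mir126a became 21835. Leaving out each replicate, the ratio of Mir143 to Mir145a was 23.6 and 28.1. Without strand neither this ratio nor its odds ratio could change, because the members' counts are the same there. Chosen after seeing the data, a ranking without genes that share a stretch of 20 nt put Mir143 at rank 11 and Mir145a at 58. Leaving genes out can only move the members up and does not restore reads lost to multimapping. Clusters joined at 2 kb or 50 kb put the pair at rank 6 or 8. A replicate ratio has no value without 1 replicate. No paired analysis was possible because there is 1 group. Depth limits Mir145b, whose 4 counts in each replicate set no order.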

Other observations

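The members gave most of the miRNA counts of their chromosome. Of 57 miRNA genes on chromosome 18, 39 had no count in either replicate and 5 were detected. Those without a count include Mir1a-2 and Mir133a-1, where a count of 0 sets no limit because multimapping reads entered no gene. Mir143 and Mir145a together held 94.9% ± 0.044 of the counts on that chromosome (SD, n = 2), and the chromosome held 2.70% of assigned counts in replicate 1 and 2.80% in replicate 2. The other 3 detected genes, named after their values were seen, were Mir378a at 1065 and 1128 CPM, Mir187 at 179 and 157 CPM and Mir122, known from liver, at 104 and 97.6 CPM. Mir378a has 20 nt in common with another hairpin gene and is uncertain.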
